A study of Mus musculus with 6 samples.

Results

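The NMDA receptor is a glutamate-gated ion channel assembled from 7 known subunits, each encoded by its own Grin gene. The obligatory GluN1 subunit comes from Grin1, the glutamate-binding GluN2 subunits from Grin2a, Grin2b, Grin2c and Grin2d, and the glycine-binding GluN3 subunits from Grin3a and Grin3b. The channel opens when glutamate and a co-agonist, glycine or D-serine, are bound while the membrane is depolarized, and it then admits calcium. In cortex Grin2b is prominent early in life and Grin2a becomes more abundant with maturation, so the balance of these transcripts is often used as a readout of receptor composition. The genes were chosen by symbol, and all 7 were found among the 54429 rows of the count files and passed the filter on low counts.

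Prefrontal cortex was taken from mice aged 6 to 8 weeks after injection of AAV9, an adeno-associated virus. In 3 libraries the virus carried a short hairpin RNA against Kmt5b, a histone H4 methyltransferase gene linked to autism, and in 3 control libraries it carried GFP. All 6 samples are labelled as total lysate of bulk tissue from C57BL6/J mice, whereas the design text names a cross of C57BL/6 with C3H and counts 2 control mice. A pair of GFP libraries may therefore share a mouse, and p-values cover the spread among libraries, which may be technical. The labels do not say what hairpin, if any, the GFP virus carried, nor which cells were transduced.

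Ribosome-depleted RNA gave between 48828638 and 57486203 counts in the Kmt5b shRNA libraries and between 29490771 and 74723284 in the GFP libraries. Kmt5b itself was at 68.5, 80.3 and 63.9 CPM (counts scaled by library size to a common total) in the Kmt5b shRNA libraries, against 86.5, 79.7 and 80.9 CPM in the GFP libraries. Kmt5b shRNA replicate 2 lay inside the GFP range, and the log2 fold change of -0.22 ± 0.10 (SE) did not pass (edgeR adjusted p = 0.303). Every direction below thus rests on the labels. Of 24419 genes tested, 676 (2.77%) were higher and 1390 (5.69%) lower in the Kmt5b shRNA libraries at an edgeR adjusted p under 0.05. Among the 15778 protein-coding genes of the same fit, the class the subunits belong to, 591 were higher and 249 lower. Markers of cortical excitatory neurons were present in every library, with the vesicular glutamate transporter gene Slc17a7 between 859 and 1109 CPM. The cerebellar granule cell marker Gabra6 did not exceed 0.0703 CPM. Oligodendrocyte markers varied widely between libraries, with a sum over 6 genes of 1474 to 3109 CPM in the Kmt5b shRNA libraries and 2688 to 4106 CPM in the GFP libraries. Of these 6 oligodendrocyte genes 0 passed the test and 0 were above 0, and the median of their log2 fold changes was -0.41. The myelin gene Mog was at 15.2, 25.6 and 30.5 CPM in the Kmt5b shRNA libraries, against 41.8, 34.5 and 41.4 CPM in the GFP libraries, without overlap (edgeR adjusted p = 0.142). The part of oligodendrocytes in the subunit values was not tested.

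None of the 7 subunit genes passed the test between the groups (0 of 7, against 8.46% of all genes tested). Grin2a, Grin2b and Grin3a were nevertheless at higher CPM in every Kmt5b shRNA library than in any GFP library, by an estimated 15.4% to 21.6%. Grin2c was lower in every Kmt5b shRNA library, with an estimated change of -21.4%, while Grin1 averaged 185.8 CPM in Kmt5b shRNA libraries and 184.7 CPM in GFP libraries. The log2 fold change was above 0 for 6 of 7 subunits, against 47.3% of all genes tested, with a median of 0.21 against -0.02 over all genes. Of tested protein-coding genes 51.9% were above 0, with a median of 0.0094. Of the 6185 protein-coding genes with an average log2 CPM of at least 5, a limit set with values in view, 60.0% were above 0 with a median of 0.04, and all 4 subunits at that level (Grin1, Grin2a, Grin2b and Grin3a) were above 0, Grin1 by 0.0088 and not under every scaling. Groups that do not overlap were thus found for 4 of 7 subunits, against 22.5% of all genes tested. Of these, 3 were higher, against 9.84% of all genes, and 1 was lower, against 12.7%. These shares cover all genes tested, protein-coding or not, and were not worked out for protein-coding genes alone. At an unadjusted edgeR p under 0.05 there were 4 of 7 subunits, against 17.4% of all genes. Grin2a counted among the 4 at an edgeR p of 0.0482. Its edgeR p was 0.0579 with the replicate number as a block and 0.0677 with no filter on low counts, but stayed under 0.05 under the other scalings. With a library left out it ran from 0.0304 (without GFP replicate 1) to 0.150 (without GFP replicate 3). With the counts of its copy Gm7328 added, as described below, its edgeR p was 0.0968, so Grin2a was then not under 0.05. DESeq2 called 1 of 7, Grin3a, against 8.09% of the 30697 genes to which it gave an adjusted p. The ratio of Grin2a to Grin2b lay in overlapping ranges in the groups. In bulk tissue, a change in the number of cells of a type and a change in RNA per cell cannot be told apart.

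Sequence matters for reading Grin2a, because an intronless copy of part of its coding sequence is annotated elsewhere in the genome. The copy is Gm7328, a processed pseudogene on chromosome 8 from 56952829 to 56955053 (mm10). Its 2225 bases matched bases 2170 to 4394 of the transcript Grin2a-201 with 2 mismatches, an identity of 99.91%, and ran across 2 exon junctions. All but 2 bases of the match, which lie in the stop codon, were coding. The window below, around the second of the mismatches, shows how little separates the gene from its copy. Capitals mark the mismatched base, C854T, with the position counted from 1 at the first base of Gm7328 and the Grin2a base written first. Sequences are from GENCODE M21 transcripts (mm10), the Grin2a window lying on the minus strand of chr16:9579169-9579229 and the Gm7328 window on the plus strand of chr8:56953652-56953712.
Grin2a: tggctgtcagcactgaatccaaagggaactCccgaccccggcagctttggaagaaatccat
Gm7328: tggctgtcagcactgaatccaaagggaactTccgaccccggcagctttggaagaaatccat

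After this mismatch the gene and the copy matched without a difference for 1371 bases. Gm7328 was much lower in the Kmt5b shRNA libraries. It had 2.0, 1.31 and 0.766 CPM there, against 13.9, 15.4 and 14.1 CPM in the GFP libraries. The groups lay far apart, with a log2 fold change of -3.40 ± 0.27 (SE, edgeR adjusted p = 8.71e-07). Counts given to the copy made up 0.333%, 0.224% and 0.127% of the counts of gene and copy together in the Kmt5b shRNA libraries. In the GFP libraries they made up 2.52%, 2.88% and 2.80%. Reads from the gene and from the copy cannot be told apart over most of this stretch, so the division of counts between them is uncertain. Whether reads were handled alike in the 2 groups is not given. For Gm7328, an effect of the hairpin and a difference in read handling therefore cannot be told apart. No match of at least 100 bases at 90% identity was found between any pair of subunit genes, and no processed pseudogene matched the other 6 subunits over 200 bases.

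Grin1 encodes the subunit that every NMDA receptor contains, and lies on chromosome 2 from 25291181 to 25319187, minus strand. It was at 197.5, 170.0 and 190.1 CPM in the Kmt5b shRNA libraries and at 192.7, 172.9 and 188.3 CPM in the GFP libraries. The groups overlapped almost entirely. Kmt5b shRNA libraries averaged 185.8 ± 14.2 CPM and GFP libraries 184.7 ± 10.4 CPM (SD, n = 3 each). The fitted change was 0.01 ± 0.10 (SE) on the log2 scale (edgeR adjusted p = 0.984). Its 95% interval ran from -13.1% to 16.5%. This interval holds for TMM scaling and takes the libraries as independent, which a shared GFP mouse would break. The direction was below 0 under upper quartile and total count scaling and in the fit of protein-coding genes, and also without Kmt5b shRNA replicate 1 or GFP replicate 2. The antisense gene Grin1os overlaps 1307 bases of Grin1 exons (13.5% of their length), and whether counting used strand is not given in the sources used here. Grin1os was low, at 2.11 to 4.23 CPM in Kmt5b shRNA libraries and 2.41 to 3.66 CPM in GFP libraries.

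**Figure D1:**
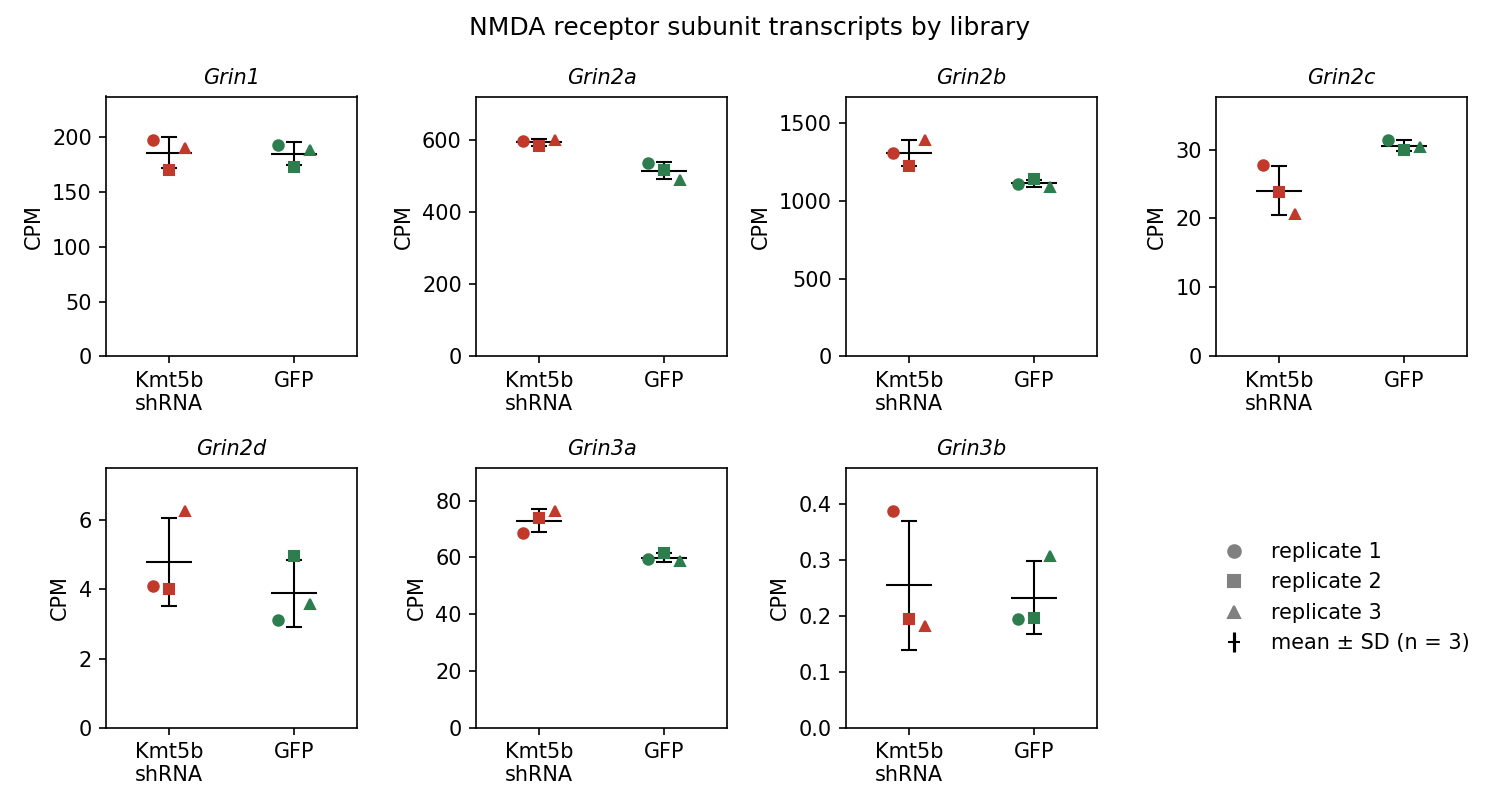
CPM of each of the 7 subunit transcripts in every library (linear axes from 0), with Kmt5b shRNA libraries in red and GFP libraries in green, replicate numbers as marker shapes, and mean ± SD as bars (n = 3 each). Grin2a, Grin2b and Grin3a lie higher and Grin2c lower in all 3 Kmt5b shRNA libraries, and the groups overlap for Grin1, Grin2d and Grin3b.

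Grin2b encodes GluN2B, the GluN2 subunit that is prominent in the immature cortex and gives slowly decaying currents. The gene covers 460279 bases of chromosome 6, from 135713233 to 136173511 on the minus strand. It was at 1307, 1225 and 1394 CPM in the Kmt5b shRNA libraries, against 1108, 1139 and 1091 CPM in the GFP libraries. Every Kmt5b shRNA library lay above every GFP library. Kmt5b shRNA libraries averaged 1309 ± 84.6 CPM and GFP libraries 1113 ± 24.5 CPM (SD, n = 3 each). The log2 fold change, 0.23 ± 0.10 (SE), did not pass (edgeR adjusted p = 0.233). The estimated difference was 17.6%, with a 95% interval from 1.22% to 36.6%.

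Grin2a encodes GluN2A, which replaces part of GluN2B as the cortex matures and gives faster currents. It covers chromosome 16 from 9567898 to 9995560, minus strand. It was at 598.7, 583.6 and 600.9 CPM in the Kmt5b shRNA libraries, against 536.9, 517.7 and 490.4 CPM in the GFP libraries. The groups did not overlap, and the Kmt5b shRNA libraries were close together. Kmt5b shRNA libraries averaged 594.4 ± 9.38 CPM and GFP libraries 515.0 ± 23.4 CPM (SD, n = 3 each). The log2 fold change, 0.21 ± 0.10 (SE), did not pass (edgeR adjusted p = 0.281). With the counts of Gm7328 added, which was decided on with values in view, the fitted log2 change was 0.17 ± 0.10 (SE, edgeR unadjusted p = 0.0968, edgeR adjusted p = 0.416). The summed levels were then 600.7, 585.0 and 601.6 CPM in Kmt5b shRNA libraries and 550.8, 533.1 and 504.5 CPM in GFP libraries, still without overlap.

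The ratio of Grin2a to Grin2b counts within a library does not depend on how libraries are scaled. It was 0.458, 0.477 and 0.431 in the Kmt5b shRNA libraries and 0.485, 0.454 and 0.450 in the GFP libraries. The highest value belonged to a GFP library and the lowest to a Kmt5b shRNA library, and the ranges overlapped. The mean was 0.455 ± 0.0229 in Kmt5b shRNA libraries and 0.463 ± 0.0189 in GFP libraries (SD, n = 3 each), a mean difference of -0.02 on the log2 scale (two-sided exact permutation p = 0.8, where 3 against 3 libraries cannot give less than 0.1). With Gm7328 counted as Grin2a the ratios were 0.460, 0.478 and 0.432 in the Kmt5b shRNA libraries and 0.497, 0.468 and 0.463 in the GFP libraries, a mean log2 difference of -0.06 (two-sided exact permutation p = 0.4). No difference in this ratio was thus seen in these libraries, though this test could not have given p under 0.05 for a difference of any size. The log2 difference turned positive when Kmt5b shRNA replicate 3 was left out (0.014) and when GFP replicate 1 was (0.0090).

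**Figure D2:**
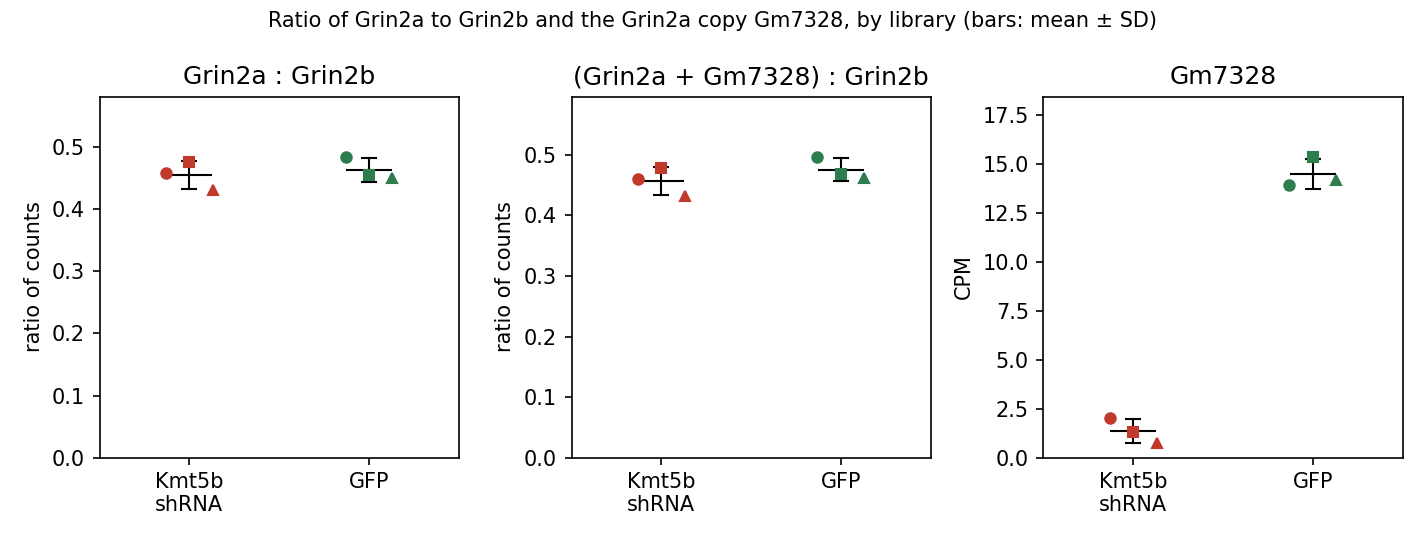
Ratio of Grin2a to Grin2b counts in each library, the same ratio with counts of the copy Gm7328 added to Grin2a, and CPM of Gm7328, with Kmt5b shRNA libraries left of GFP libraries, marker shapes for replicates 1 to 3 (circle, square, triangle) and bars for mean ± SD. The ratios overlap between the groups, while Gm7328 is at or below 2.0 CPM in the Kmt5b shRNA libraries and at 13.9 to 15.4 CPM in the GFP libraries.

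Relative to Grin1, both main GluN2 transcripts were higher in the Kmt5b shRNA libraries. The counts of Grin2b per count of Grin1 were 6.62, 7.21 and 7.33 there, against 5.75, 6.59 and 5.79 in the GFP libraries. For Grin2a the ratios to Grin1 were 3.03, 3.43 and 3.16 in the Kmt5b shRNA libraries, against 2.79, 2.99 and 2.60 in the GFP libraries. The groups did not overlap in either ratio, although Kmt5b shRNA replicate 1 was close to GFP replicate 2 in both. For Grin2a this held only without its copy. With the counts of Gm7328 added to Grin2a, GFP replicate 2 was slightly above Kmt5b shRNA replicate 1, so the groups overlapped. Markers of excitatory neurons, which carry most NMDA receptors in cortex, had a sum over 6 genes of 2770, 2551 and 2578 CPM in Kmt5b shRNA libraries and 2666, 2261 and 2618 CPM in GFP libraries. Of these 6 genes 0 passed, 5 were above 0 and the median log2 fold change was 0.10. Among 6 markers of neurons in general 0 passed, 3 were above 0 and the median was -0.02. The sum over these general markers was 7577, 8205 and 7132 CPM in Kmt5b shRNA libraries and 8734, 7336 and 7235 CPM in GFP libraries. The part of either list in the Grin2a and Grin2b values was not tested. Protein-coding genes spanning at least 150 kb, as Grin2a, Grin2b and Grin3a do, had a median log2 fold change of 0.03 over 1411 genes. The median was 0.01 over 14367 shorter genes, a limit set after the data were seen. At an average log2 CPM of at least 5, where these subunits lie, the medians were 0.043 over 803 long genes and 0.037 over 5382 shorter genes.

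Grin2c encodes GluN2C, the subunit of cerebellar granule cells that in cortex is known from astrocytes. It lies on chromosome 11 from 115249169 to 115267243, minus strand. It was at 27.7, 23.8 and 20.6 CPM in the Kmt5b shRNA libraries, against 31.4, 29.9 and 30.4 CPM in the GFP libraries. All Kmt5b shRNA libraries were lower, and they differed more among themselves than the GFP libraries did. Kmt5b shRNA libraries averaged 24.0 ± 3.55 CPM and GFP libraries 30.6 ± 0.767 CPM (SD, n = 3 each). The log2 fold change, -0.35 ± 0.11 (SE), did not pass (edgeR adjusted p = 0.0875). The edgeR adjusted p was 0.0403 without Kmt5b shRNA replicate 1, 0.0463 under total count scaling and 0.0378 with no filter on low counts, and over all alternatives it ran up to 0.353, without Kmt5b shRNA replicate 3. Per count of Grin2b, Grin2c counts were 0.0212, 0.0194 and 0.0148 in the Kmt5b shRNA and 0.0283, 0.0262 and 0.0279 in the GFP libraries, again without overlap.

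The sum over 8 astrocyte markers was lower in every Kmt5b shRNA library than in any GFP library, as Grin2c was. It was 1974, 1926 and 1808 CPM in the Kmt5b shRNA libraries, against 2064, 2132 and 2101 CPM in the GFP libraries, with 2 lower and 0 higher of 8 tested and 2 above 0. The median of their log2 fold changes was -0.15. The lower members were the water channel gene Aqp4 (-0.64 ± 0.12 SE, edgeR adjusted p = 0.00178) and the gap junction gene Gja1 (-0.51 ± 0.12 SE, edgeR adjusted p = 0.0114). Gja1 did not pass without GFP replicate 3 (adjusted p = 0.0533) or without Kmt5b shRNA replicate 3 (adjusted p = 0.0614). The intermediate filament gene Gfap, also of astrocytes, was at 315.1, 279.6 and 432.4 CPM in Kmt5b shRNA libraries and 179.1, 292.5 and 315.2 CPM in GFP libraries (edgeR adjusted p = 0.545). The part of astrocytes in the Grin2c values was not tested. Cerebellar granule cell markers were low in both groups, with a sum over 4 genes of 5.96 to 7.90 CPM in Kmt5b shRNA libraries and 4.33 to 7.31 CPM in GFP libraries.

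Grin2d encodes GluN2D, found in cortical interneurons and in early development. It lies on chromosome 7 from 45831883 to 45878378, minus strand. It was at 4.11, 4.02 and 6.27 CPM in the Kmt5b shRNA libraries and at 3.11, 4.98 and 3.59 CPM in the GFP libraries. The ranges overlapped, and Kmt5b shRNA replicate 3 stood above the rest. The fitted log2 change was 0.32 ± 0.24 (SE, edgeR adjusted p = 0.587), and it moved to 0.08 when Kmt5b shRNA replicate 3 was left out and to 0.52 when GFP replicate 2 was. These values rest on 187 to 344 counts in the Kmt5b shRNA libraries and 153 to 281 in the GFP libraries. The antisense gene Gm45441 overlaps 9.66% of the Grin2d exon length and was at 2.06 to 2.50 CPM in Kmt5b shRNA libraries and 1.5 to 2.05 CPM in GFP libraries, without overlap.

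Grin3a encodes GluN3A, which binds glycine, lowers calcium entry and is retained in adult cortex mainly in somatostatin interneurons. It lies on chromosome 4 from 49661611 to 49845744, minus strand. It was at 68.5, 73.9 and 76.3 CPM in the Kmt5b shRNA libraries, against 59.5, 61.7 and 58.7 CPM in the GFP libraries. The groups did not overlap, and the nearest libraries of the 2 groups lay further apart than the GFP libraries did from each other. Kmt5b shRNA libraries averaged 72.9 ± 4.01 CPM and GFP libraries 60.0 ± 1.56 CPM (SD, n = 3 each). The log2 fold change, 0.28 ± 0.09 (SE), did not pass (edgeR adjusted p = 0.0837). DESeq2 gave an adjusted p of 0.0490, and over the other alternatives, all fitted with edgeR, the adjusted p lay between 0.0709 and 0.226. The estimated difference was 21.6%, with a 95% interval from 6.10% to 39.5%. Per count of Grin1, Grin3a counts were 0.347, 0.435 and 0.402 in the Kmt5b shRNA and 0.309, 0.357 and 0.311 in the GFP libraries, which overlap.

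Of the 8 interneuron markers, 1 passed. This was Pvalb, a calcium-binding protein gene of fast-spiking interneurons, lower at 22.1, 23.3 and 23.7 CPM in the Kmt5b shRNA against 34.9, 39.3 and 29.1 CPM in the GFP libraries (log2 fold change -0.58 ± 0.12 SE, edgeR adjusted p = 0.00329). The somatostatin gene Sst was at 115.9, 135.5 and 124.3 CPM in the Kmt5b shRNA libraries and at 130.3, 111.3 and 96.7 CPM in the GFP libraries, with overlapping ranges (edgeR adjusted p = 0.598). The interneuron list summed to 684.7 to 722.8 CPM in Kmt5b shRNA libraries and 683.6 to 753.6 CPM in GFP libraries, with a median log2 fold change of -0.03. Of the 8 markers, 3 were above 0. Vip (0.27, edgeR adjusted p = 0.149) and Lhx6 (0.26, edgeR adjusted p = 0.279) were higher in every Kmt5b shRNA library than in any GFP library. Gad1 was lower in every one (-0.11, edgeR adjusted p = 0.642). The part of this list in the Grin2d and Grin3a values was not tested.

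Grin3b encodes GluN3B, best known from motor neurons, and lies on chromosome 10 from 79970715 to 79977190, plus strand. Its counts were very low, with 22, 9 and 10 counts in the Kmt5b shRNA libraries and 13, 6 and 24 counts in the GFP libraries. The levels were 0.387, 0.194 and 0.182 CPM in the Kmt5b shRNA libraries, against 0.194, 0.195 and 0.307 CPM in the GFP libraries, and the ranges overlapped. The 95% interval of its log2 fold change ran from -1.04 to 1.26, so these libraries leave changes within that range possible. Exons of Tmem259 on the other strand overlap 32.1% of the Grin3b exon length, and Tmem259 was at 61.0 to 71.7 CPM in Kmt5b shRNA libraries and 54.1 to 68.8 CPM in GFP libraries.

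**Figure D3:**
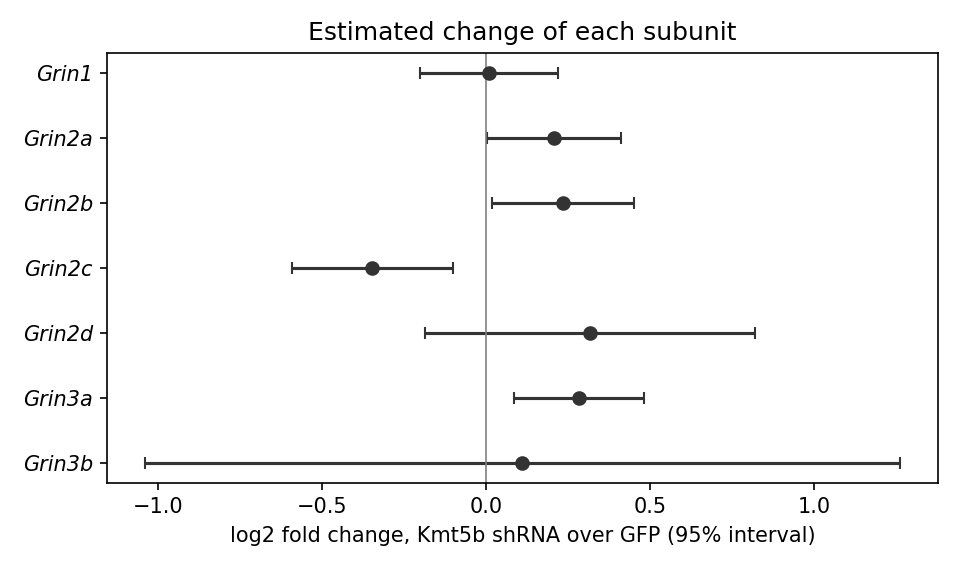
Log2 fold change of each subunit, Kmt5b shRNA over GFP, from edgeR with its 95% interval (3 libraries a group). Intervals of Grin2a, Grin2b and Grin3a lie above 0 and that of Grin2c below 0 before adjustment over all genes, and that of Grin3b runs from -1.04 to 1.26. The Grin2a interval starts at 0.0018 and leaves out the counts of its copy Gm7328. With them added the unadjusted edgeR p was 0.0968.

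Levels of different subunits were ranked only per length. The ratios of counts between subunits given above are not divided by length, so they compare the groups and not the subunits. Per kilobase of the longest coding transcript, Grin2b was at 54.4 ± 3.52 CPM in Kmt5b shRNA libraries and 46.2 ± 1.02 CPM in GFP libraries (SD, n = 3 each). Grin1 followed at 43.5 ± 3.33 CPM per kilobase in Kmt5b shRNA libraries and 43.2 ± 2.43 in GFP libraries, and Grin2a at 40.6 ± 0.641 in Kmt5b shRNA libraries and 35.2 ± 1.60 in GFP libraries. Grin1 and Grin2a overlapped in the Kmt5b shRNA libraries and did not in the GFP libraries. Grin3a stood at 9.73 ± 0.535 CPM per kilobase in Kmt5b shRNA libraries and 8.00 ± 0.209 in GFP libraries. Grin2c stood at 4.91 ± 0.726 in Kmt5b shRNA libraries and 6.25 ± 0.157 in GFP libraries. Grin2d was below both at 0.884 ± 0.234 in Kmt5b shRNA libraries and 0.717 ± 0.179 in GFP libraries, and Grin3b was lowest of the 7 at 0.0774 ± 0.0350 in Kmt5b shRNA libraries and 0.0707 ± 0.0197 in GFP libraries. The order depends on the length used. Divided by the union of all annotated exons, which for Grin1 measures 9700 bases against 4276 bases in the longest coding transcript, Grin1 stood below Grin2a, at 19.2 and 33.1 CPM per kilobase in the Kmt5b shRNA libraries and at 19.0 and 28.7 in the GFP libraries. On that length Grin3a was above Grin2c in the Kmt5b shRNA libraries (5.94 and 4.77) and below it in the GFP libraries (4.88 and 6.07).

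Among the GluN2 transcripts, per kilobase of the longest coding transcript, Grin2b made up 53.9% of the sum in the Kmt5b shRNA and 52.3% in the GFP libraries, as means over 3 libraries. Grin2a made up 40.3% in Kmt5b shRNA libraries and 39.8% in GFP libraries, and Grin2d 0.873% in Kmt5b shRNA libraries and 0.810% in GFP libraries. Grin2c made up 5.57%, 5.04% and 4.04% in the Kmt5b shRNA libraries, against 7.15%, 6.81% and 7.25% in the GFP libraries.

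**Figure D4:**
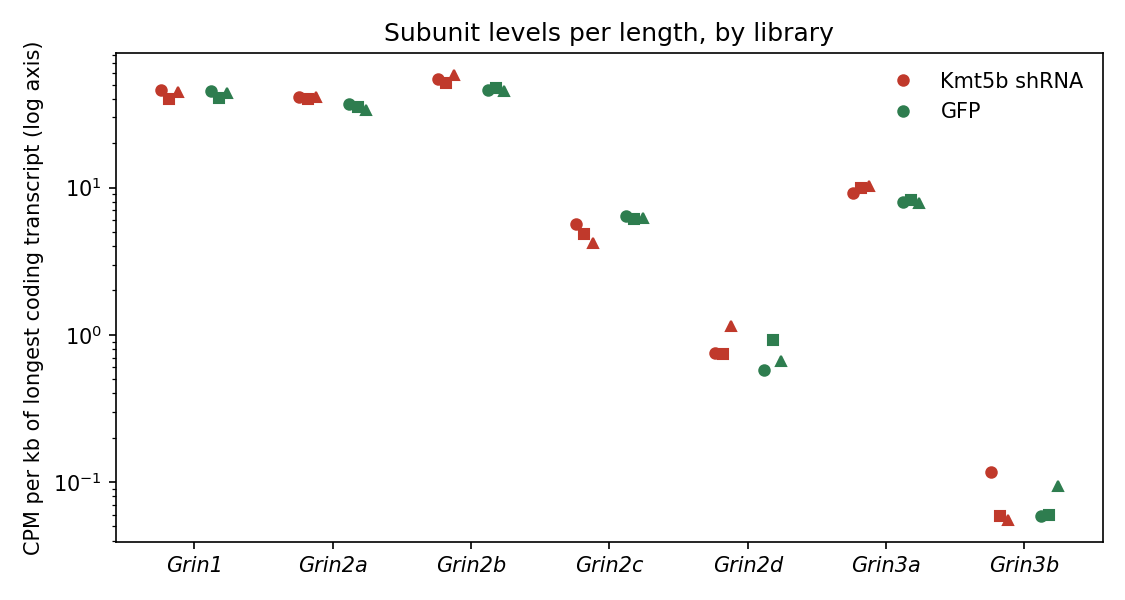
CPM per kilobase of the longest coding transcript for each subunit in every library, on a log axis, with Kmt5b shRNA libraries in red left of GFP libraries in green and marker shapes for replicates 1 to 3 (circle, square, triangle). Grin2b, Grin1 and Grin2a lie within 33.5 to 57.9 CPM per kilobase, and Grin3b within 0.0555 to 0.118.

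The profiles of Grin2a, Grin2b and Grin3a across the 6 libraries were closer to each other than to that of Grin1. These genes were all higher in the Kmt5b shRNA libraries, and that shared difference is part of the profiles. The root mean square difference between log2 levels, each centred on its own mean, was 0.0552 between Grin2a and Grin2b, 0.0648 between Grin2b and Grin3a and 0.0711 between Grin2a and Grin3a. Against Grin1 these genes differed by 0.127, 0.137 and 0.180 (Grin2a, Grin2b, Grin3a), and Grin2c differed from Grin2b by 0.334. Among 12963 named genes the closest to Grin2b were Ptpn1, a tyrosine phosphatase, at 0.0160 and Cdk8, a kinase of the Mediator complex, at 0.0162. Among the closest to Grin2a was the diacylglycerol kinase gene Dgkd at 0.0196. The closest to Grin1 were Armc9 at 0.0296 and Gabrd, the delta subunit of the GABA-A receptor, at 0.0302. The median gene lay 0.170 from Grin1, 0.169 from Grin2a and 0.191 from Grin2b. All of these profiles share the same 6 libraries and the same scaling.

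Around the receptor, 81 genes in 4 lists supply its ligands, anchor it, act downstream of it or bear on its expression. Of 17 tested genes of co-agonist and glutamate supply, 1 was higher and 1 lower, with a median log2 fold change of -0.07 against -0.02 over all genes tested. The lower gene was Slc7a10, a transporter of glycine and D-serine, at 13.1, 11.9 and 12.1 CPM in the Kmt5b shRNA against 16.5, 16.1 and 17.2 CPM in the GFP libraries. The groups did not overlap (log2 fold change -0.43 ± 0.11 SE, edgeR adjusted p = 0.0276), but the call held in 0 of 6 fits with a library left out, where the adjusted p lay between 0.0521 and 0.108. The lower astrocyte sums given for Grin2c stand beside this value too, and their part in it was not tested. The higher gene was Phgdh, the first enzyme of serine synthesis, with a log2 fold change of 0.70 ± 0.11 (SE, edgeR adjusted p = 0.000402). It was at 37.0, 40.7 and 31.9 CPM in Kmt5b shRNA libraries, against 21.6 to 24.0 CPM in GFP libraries, without overlap. Phgdh has 19 processed pseudogenes among the rows, which together held 0.966 to 1.05 CPM in Kmt5b shRNA libraries and 17.8 to 20.1 CPM in GFP libraries. With their counts added, the fitted log2 change of Phgdh was -0.15 ± 0.11 (SE, edgeR adjusted p = 0.560). Serine racemase, Srr, which makes D-serine, was at 50.7 to 59.7 CPM in Kmt5b shRNA libraries and 46.1 to 54.6 CPM in GFP libraries (edgeR adjusted p = 0.778).

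Of 20 genes of scaffolds and trafficking proteins, 1 was higher and 0 lower, with a median of 0.10. This was Apba1, an adaptor of the complex that carries GluN2B along dendrites, at 265.1, 259.0 and 277.3 CPM in the Kmt5b shRNA against 207.2, 227.5 and 192.4 CPM in the GFP libraries (log2 fold change 0.35 ± 0.10 SE, edgeR adjusted p = 0.0362). It passed in 1 of 6 fits with a library left out (the fit without GFP replicate 2), with adjusted p between 0.0218 and 0.178. With all libraries it did not pass under total count scaling (edgeR adjusted p = 0.0562) or in the fit of protein-coding genes (edgeR adjusted p = 0.0529). Dlg4, the main scaffold that holds GluN2 subunits at the postsynaptic density, was at 421.5, 401.6 and 401.6 CPM in Kmt5b shRNA libraries and 396.4, 378.7 and 350.0 CPM in GFP libraries, which did not overlap and did not pass (edgeR adjusted p = 0.620).

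Of 28 downstream signalling genes, 1 was higher and 0 lower, with a median of 0.05. It was Csnk2a1, the catalytic subunit of casein kinase 2, which phosphorylates the GluN2B tail, at 146.8, 167.4 and 135.3 CPM in the Kmt5b shRNA against 98.1, 80.0 and 84.7 CPM in the GFP libraries. The groups were clearly apart, with a log2 fold change of 0.77 ± 0.11 (SE, edgeR adjusted p = 0.000142), and the gene passed in 6 of 6 fits with a library left out. It has 3 processed pseudogenes among the rows, and with their counts added the log2 fold change was 0.77 (edgeR adjusted p = 0.000155). These copies together held 0.0703, 0 and 0.0365 CPM in Kmt5b shRNA libraries and 0.389, 0.390 and 0.639 CPM in GFP libraries. Adding deposited counts cannot show whether shared reads were left out of counting, so the part of read handling in the Csnk2a1 values was not tested. The kinase subunit gene Camk2a was at 1450, 1192 and 1329 CPM in Kmt5b shRNA libraries and 1227, 1100 and 1362 CPM in GFP libraries, with overlap (edgeR adjusted p = 0.745). Of 15 genes with a known role in subunit expression, 0 passed, and the median was 0.05. Those of smallest p were the Polycomb gene Suz12 (log2 fold change 0.22 ± 0.10 SE, edgeR adjusted p = 0.241) and Rest, a repressor of neuronal genes that acts on Grin2b (-0.28 ± 0.13 SE, edgeR adjusted p = 0.314).

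**Figure D5:**
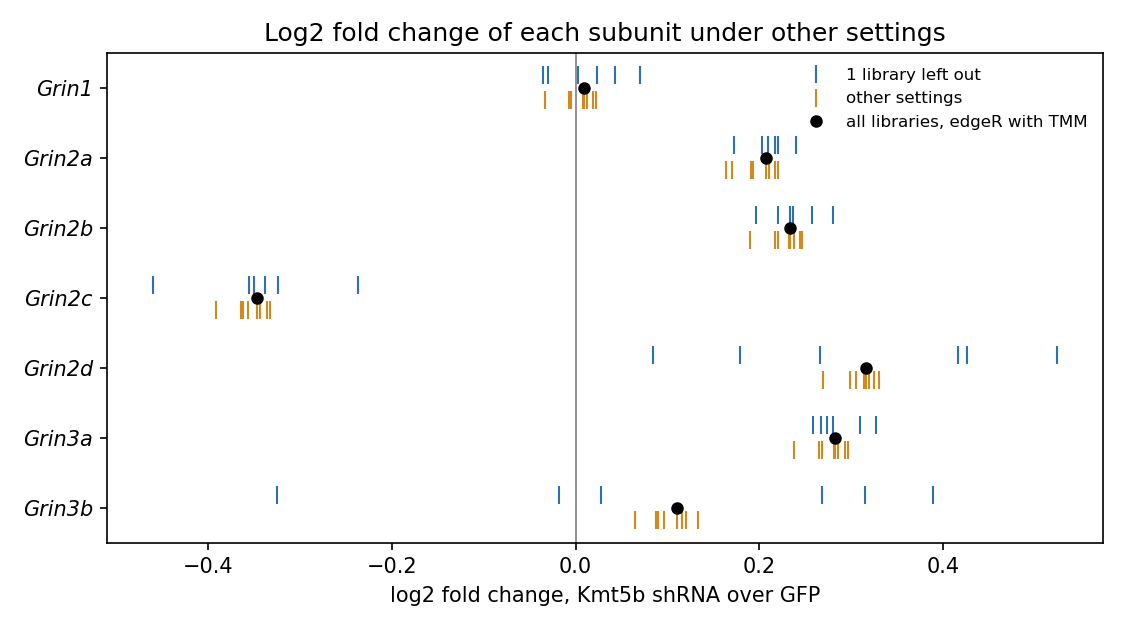
Log2 fold change of each subunit, Kmt5b shRNA over GFP, with all libraries (black), with 1 library left out (blue ticks) and under the other settings (orange ticks). Values of Grin2a, Grin2b and Grin3a stay above 0 and those of Grin2c below 0 under all 14 settings shown, while Grin1 and Grin3b cross 0.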

How the data were processed

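Raw counts per gene symbol, as deposited, were used for 6 libraries. The labels' protocols describe strand-specific libraries of ribosome-depleted total RNA, trimming by Cutadapt and alignment by TopHat2 against RefSeq mRNAs. The submitters' processing notes name STAR, featureCounts, DESeq2 and mm10 instead. Which aligner made which library, and whether counting used strand, is not given in the sources used here. Reads shared by a gene and a near-identical copy can be assigned differently by different aligners. Counts of Gm7328 and of the processed pseudogenes of Phgdh and Csnk2a1 were lower in every Kmt5b shRNA library than in any GFP library. If processing differed between the groups, it cannot be told apart from the hairpin, in these values or in the number of genes called.

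The test across all genes was that of edgeR 4.0.16, run in R 4.3.3 (filterByExpr, TMM scaling, robust quasi-likelihood fit, Benjamini-Hochberg adjusted p under 0.05 over all 24419 genes). Standard errors were taken as the size of the log2 fold change over the root of its F statistic, and intervals are at 95%. The test was also run on simulated counts, drawn independently for each library and with changes larger than those estimated for the subunits. That simulation held no shared mouse and no difference in read handling, so it does not bear on those limits. CPM values use TMM library sizes. Between replicates of a group, chi-square per gene was 17.8 to 42.7, above what counting noise gives. Positions, exon lengths and transcripts came from GENCODE M21 (mm10), and shared sequence was searched by BLAST+ 2.17.0 (matches of 100 bases or more, 90% identity or more). In the files, 2 rows repeat an earlier symbol and were kept as separate rows.

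The subunits and gene lists were chosen with earlier results of these data known. Named genes were the 7 subunits, Kmt5b, called list members (up to 3 per direction, or the 2 of smallest p where none was called) and the 2 closest profiles of Grin1, Grin2a and Grin2b among named genes of average log2 CPM of at least 1 (a pseudocount of 0.1 CPM was added before logs). Gm7328, overlapping genes, Srr, Dlg4, Camk2a, and the markers named were added after values were seen. Alternatives were DESeq2 1.42.0, other scalings, no filter, protein-coding genes only, a replicate block, and each library left out. Adding counts of processed pseudogenes (matches over at least 200 bases) to Grin2a and to the other named genes was chosen after the data were seen. A gene that the rule names is not reported here.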

Additional observations from a re-analysis of the deposited data

How the results depend on the processing

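The count of subunits called was 1 with DESeq2 (Grin3a), 1 under total count scaling and 1 with no filter on low counts (Grin2c in both), against 0 of 7 with all libraries, and 0 to 1 with a library left out, the 1 being Grin2c without Kmt5b shRNA replicate 1. The log2 fold change of Grin1 was -0.0077 under upper quartile scaling, -0.033 under total count scaling and -0.0045 in the fit of protein-coding genes, and -0.036 to 0.070 with a library left out. That of Grin3b was -0.33 to 0.39 with a library left out. Grin2a stayed between 0.16 and 0.24, Grin2b between 0.19 and 0.28, Grin3a between 0.24 and 0.33 and Grin2c between -0.46 and -0.24 over the 14 alternatives. The log2 difference of the Grin2a to Grin2b ratio was -0.058 to 0.014 with a library left out. Over all genes, 2066 were called, 655 in the fit of protein-coding genes, which leaves out pseudogenes (471 higher and 184 lower, against 676 higher and 1390 lower), and 1696 to 2332 with a library left out. Same-numbered libraries deviated from their group means with correlations of -0.10, -0.11 and 0.34 over 15056 genes, so the numbers were not taken to pair the samples. With the replicate number as a block, 0 subunits and 2211 genes were called, Apba1 had an edgeR adjusted p of 0.0525, and the ratio difference was -0.02 (exact sign-flip p = 0.75). Fits with a library left out have 2 libraries in a group. Depth limited Grin3b, with 6 to 24 counts a library.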
